A study of Mus musculus with 48 samples.

Results

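The mRNAs of 8 genes that store, take up and sense iron were followed in mouse pancreatic tumor cells treated with N6L. The genes were those of the ferritin heavy and light chains (Fth1 and Ftl1), the transferrin receptor (Tfrc), the iron regulatory proteins 1 and 2 (Aco1 and Ireb2), the ferritin receptor of autophagy (Ncoa4) and the poly(C)-binding proteins 1 and 2 (Pcbp1 and Pcbp2). They were chosen by symbol, and each symbol matched 1 of the 50600 Ensembl genes with counts. All 8 passed the filter on low counts and were among the 13889 genes tested.

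N6L is a synthetic pseudopeptide that binds nucleolin, a protein of the nucleolus and the cell surface with roles in ribosome production and mRNA translation. Cells of mPDAC, a line from a mouse pancreatic ductal adenocarcinoma (FVB/N x C57BL6 background, with an age label of 8 weeks), received 50 µM N6L for 48 h (3 cultures, numbered 1, 2 and 3) or were non-treated (NT, 3 cultures, numbered 1, 2 and 4). Emetine, which holds ribosomes on the mRNA, was given to all cultures before lysis, and nuclei and mitochondria were spun out. From each lysate polyadenylated RNA was sequenced from the whole cytoplasm and from the pooled polysomal fractions of a sucrose gradient. The cytoplasmic library measures how much of an mRNA is present and the polysomal library how much of it sediments with several ribosomes. Both amounts are relative to the other mRNAs of the same library. One cell line was used, and the sources do not say how the numbered cultures relate to each other, so p-values measure the spread between these cultures only.

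In mammalian cells iron is balanced largely after transcription. Iron regulatory proteins bind hairpins called iron-responsive elements (IREs) when iron is scarce: a hairpin in the 5′ untranslated region (UTR) then blocks translation, as in both ferritin mRNAs, whereas hairpins in the 3′UTR of the Tfrc mRNA protect it from decay. Transferrin receptor brings iron in, ferritin shells made of heavy and light chains store it, Ncoa4 carries ferritin to the lysosome for release of the iron, and Pcbp1 and Pcbp2 are RNA-binding proteins that also deliver iron to ferritin. Aco1 is a cytosolic aconitase when it holds an iron-sulfur cluster and an IRE-binding protein when it does not, and Ireb2 is degraded when iron is plentiful.

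The hairpins themselves are shown first, since they set the ferritin and transferrin receptor mRNAs apart from the other members. In the protein-coding transcripts of the GENCODE vM21 basic set (GRCm38), the motif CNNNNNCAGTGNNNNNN was searched on the mRNA strand of every UTR. A match needed 5 paired bases between the bulged C and the loop and at least 3 of 5 pairs below the bulge. Each line gives the 27 bases of a match 5′ to 3′ as DNA, with the bulged C and the 6-base loop in capitals.
Fth1, 5′UTR, chr19:9982733-9982759, + strand: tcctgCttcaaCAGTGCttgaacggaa
Ftl1, 5′UTR, chr7:45459780-45459806, − strand: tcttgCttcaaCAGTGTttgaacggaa
Tfrc, 3′UTR, chr16:32631220-32631246, + strand: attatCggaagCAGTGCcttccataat
Tfrc, 3′UTR, chr16:32631599-32631625, + strand: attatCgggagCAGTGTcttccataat
Tfrc, 3′UTR, chr16:32631664-32631690, + strand: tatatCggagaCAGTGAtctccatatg
Tfrc, 3′UTR, chr16:32631711-32631737, + strand: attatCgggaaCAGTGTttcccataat
Slc40a1, 5′UTR, chr1:45925466-45925492, − strand: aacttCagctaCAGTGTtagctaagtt
The Fth1 and Ftl1 elements shared 25 of 27 bases and differed by C3T and C17T, with Fth1 first and positions counted from 1 at the 5′ end of the site. The last line is the element of Slc40a1, the iron exporter ferroportin, shown for comparison with ferritin. Of 12027 tested genes with an annotated 5′UTR, 4 (0.0333%) held a match, namely Fth1, Ftl1, Slc40a1 and Ppp1r1b, and of 12065 with a 3′UTR, 29 (0.240%) held one. Tfrc was the 1 tested gene with more than 1 match. These UTRs differ in length from gene to gene, the 3′UTR of Tfrc being 2458 bases long, and a match is a description of the letters. The motif is strict, and the matches are not a census of IREs. Epas1, counted below among genes known to carry IREs, was tested and had no 5′UTR match. Aco1, Ireb2, Ncoa4, Pcbp1 and Pcbp2 held no match in the transcripts searched.

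The 8 genes lie on 8 different chromosomes and their mRNAs differ widely in length. Fth1 (chr19:9980598-9985098, + strand) and Ftl1 (chr7:45457944-45459884, − strand) have short transcripts of 929 and 968 bases. Pcbp1 (chr6:86524492-86526321, − strand) has 1830 bases and Pcbp2 (chr15:102470539-102500061, + strand) 2952 bases. The other members are longer. Aco1 (chr4:40143081-40198338, + strand) has 3832 bases, Ncoa4 (chr14:32159865-32179855, + strand) 4065, Tfrc (chr16:32608920-32632794, + strand) 4890 and Ireb2 (chr9:54863789-54912530, + strand) 5770. Their GC content ran from 39.0% in Ireb2 to 58.1% in Ftl1.

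Each of the 12 libraries was deposited as 4 technical replicates, which differed by little more than counting noise (chi-square of 1.02 to 1.04 per degree of freedom) and were summed to totals of 19519911 to 44972333 counts. The members held between 182 counts (Tfrc) and 164526 counts (Fth1) in a library. Ductal keratins marked the cells as labelled, with the 7 ductal markers summing to 6427 to 10524 CPM (counts per 1e6 counts) in a library, although Epcam was near 0 with at most 10 counts. The 15 markers of leukocytes, endothelium, fibroblasts, acinar, islet and red blood cells summed to at most 2.89 CPM, with 7 of them (among them Lum, Cpa1, Ins1 and Gcg) at 0 in every library. Reads of near-identical copies can be counted or dropped, and the sources used here do not say which rule was applied. Of the 50-base windows of the Ftl1 transcript, 90.6% also occur in 17 other annotated genes, among them processed pseudogenes, which received 483 counts against 844924 for Ftl1. For Ncoa4 the share was 43.1%, with 1 pseudogene that received 100 counts against 12129. For Pcbp2 it was 57.9% with both strands searched, with 5 genes that received 6125 counts in all. Most of that share is overlap at the locus and not a copy elsewhere. Map3k12, which overlaps Pcbp2 on the opposite strand (5825 counts against 319867), held 52.6% of the windows. The processed pseudogenes Gm6140 and Gm12186 held 0.551% and 0.276%. The antisense RNA 1600020E01Rik overlaps Pcbp1 (11051 against 267911). Ftl1 levels are therefore uncertain to the extent that multiply mapped reads were dropped.

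Ferritin mRNAs were by far the most abundant of the 8 in CPM per kilobase of transcript, the scale on which different genes can be compared. In NT cytoplasm Fth1 stood at 5883 ± 1245 CPM per kilobase (SD, n = 3 for all values of a group) and Ftl1 at 3310 ± 785. Pcbp1 (489 ± 64.2) and Pcbp2 (374 ± 52.3) followed, and their ranges overlapped. Aco1 came next at 26.5 ± 1.02 CPM per kilobase, above Ireb2 at 7.85 ± 1.29, so that the mRNA of iron regulatory protein 1 exceeded that of iron regulatory protein 2 without overlap. Ncoa4 (5.18 ± 2.68) and Tfrc (4.62 ± 0.650) were lowest, and the ranges of Ireb2, Ncoa4 and Tfrc overlapped from each to the next. Under N6L the order of the cytoplasmic levels was the same except that Ncoa4 (14.03 ± 0.949) stood above Ireb2 (12.2 ± 2.88), with overlapping ranges. The ranges of Fth1 (2670 ± 105) and Ftl1 (2449 ± 235) now overlapped and those of Pcbp1 (303 ± 15.5) and Pcbp2 (244 ± 13.3) did not.

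**Figure D1:**
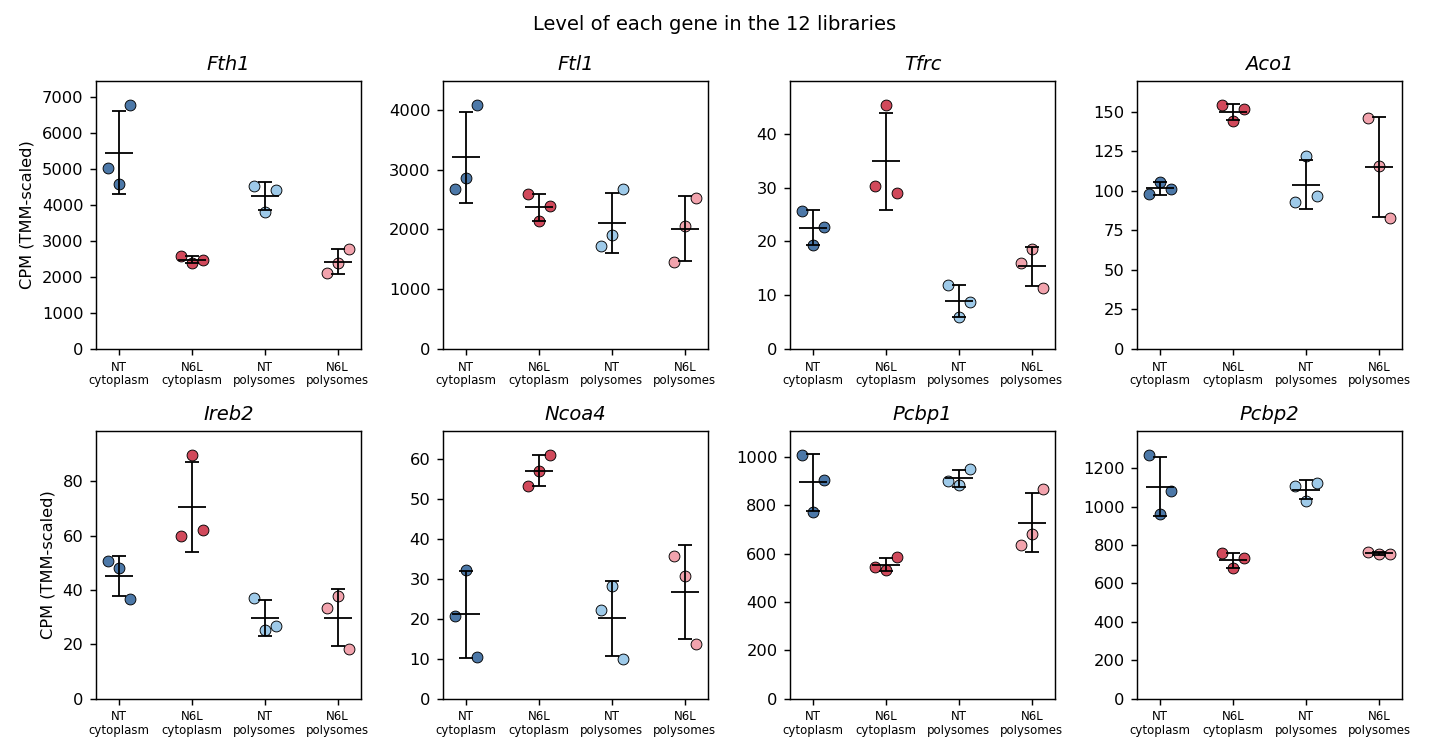
Level of each of the 8 genes in the 12 libraries, in CPM scaled by TMM, on a linear axis that starts at 0 and differs between panels. Points are cultures in the order of their numbers, horizontal bars the mean and whiskers the SD of 3 cultures. In the cytoplasm the N6L points of all 8 genes do not overlap the NT points, lying below them for Fth1, Ftl1, Pcbp1 and Pcbp2 and above them for the other 4. For Ftl1 the gap is narrow.

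The first comparison asks how N6L changed the amount of each mRNA in the cytoplasm. The heavy chain of ferritin fell 2.20-fold, Pcbp1 fell 1.61-fold and Pcbp2 fell 1.53-fold, while Ncoa4 rose 2.71-fold and Aco1 rose 1.48-fold. That makes 5 of 8 genes past an FDR of 0.05 (edgeR's quasi-likelihood test, Benjamini-Hochberg adjustment over all 13889 genes, as for every FDR below), beside 28.3% of all genes tested, with 2 higher beside 14.5% and 3 lower beside 13.8%. The median log2 change of the 8 was 0.063, beside 0.042 for all genes, with 4 members above 0 and 4 below. NT and N6L cultures did not overlap for any of the 8 genes, which was so for 54.9% of all genes. Values are shares of the mRNA of a library, so that fewer cells of a type and less RNA per cell cannot be told apart.

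Fth1, the chain that oxidises iron for storage, had 5023, 4596 and 6778 CPM in the cytoplasm of NT cultures 1, 2 and 4, and 2577, 2382 and 2481 CPM in N6L cultures 1, 2 and 3. Every N6L culture was far below the lowest NT culture, and the N6L cultures lay close together. The log2 change was −1.14 ± 0.17 (SE; FDR 0.00114). Ftl1, the chain that helps the iron core form, had 2674, 2865 and 4075 CPM in NT cytoplasm and 2590, 2135 and 2387 CPM under N6L. The groups just failed to overlap, the highest N6L culture lying below the lowest NT culture by less than the spread of either group, and the log2 change of −0.43 ± 0.22 did not pass (FDR 0.155).

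Tfrc, the receptor that takes up iron bound to transferrin, had 25.7, 19.4 and 22.7 CPM in NT cytoplasm and 30.4, 45.3 and 29.0 CPM under N6L. N6L culture 2 stood well above the other two, and the log2 difference of 0.63 ± 0.26 did not pass (FDR 0.0777). Aco1 had 98.1, 106 and 101 CPM in NT cytoplasm and 154, 144 and 152 CPM under N6L. Both groups were tight and well separated, and Aco1 rose by 0.56 ± 0.19 on the log2 scale (FDR 0.036). Ireb2 had 50.7, 48.3 and 36.8 CPM in NT cytoplasm and 59.8, 89.7 and 62.2 CPM under N6L. As for Tfrc, culture 2 was the highest of the N6L cultures, and the log2 difference of 0.64 ± 0.26 did not pass (FDR 0.0752).

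Ncoa4 had 20.6, 32.2 and 10.4 CPM in NT cytoplasm and 53.2, 57.0 and 60.9 CPM under N6L. The NT cultures were far apart while the N6L cultures were close together and higher, and Ncoa4 rose by 1.44 ± 0.42 on the log2 scale (FDR 0.0228). Pcbp1 had 1008, 773 and 903 CPM in NT cytoplasm and 546, 531 and 586 CPM under N6L, a log2 change of −0.69 ± 0.15 (FDR 0.00657). Pcbp2 had 1268, 962 and 1080 CPM against 756, 679 and 730 CPM, a log2 change of −0.61 ± 0.14 (FDR 0.0066). Both poly(C)-binding protein mRNAs were thus lower in every N6L culture than in any NT culture. The falls of Fth1, Pcbp1 and Pcbp2 passed whichever culture was left out. Without NT culture 1 or without N6L culture 2, 3 members passed and Ncoa4 (FDR 0.081 and 0.0877) and Aco1 (FDR 0.111 and 0.129) did not. Those fits called 2253 of 14084 and 1295 of 14019 genes. Aco1 also missed the limit without NT culture 2 (FDR 0.0659) or 4 (FDR 0.113), and without N6L culture 3 Tfrc and Ireb2 passed as well, for 7 members (FDR 0.0422 and 0.0268).

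**Figure D2:**
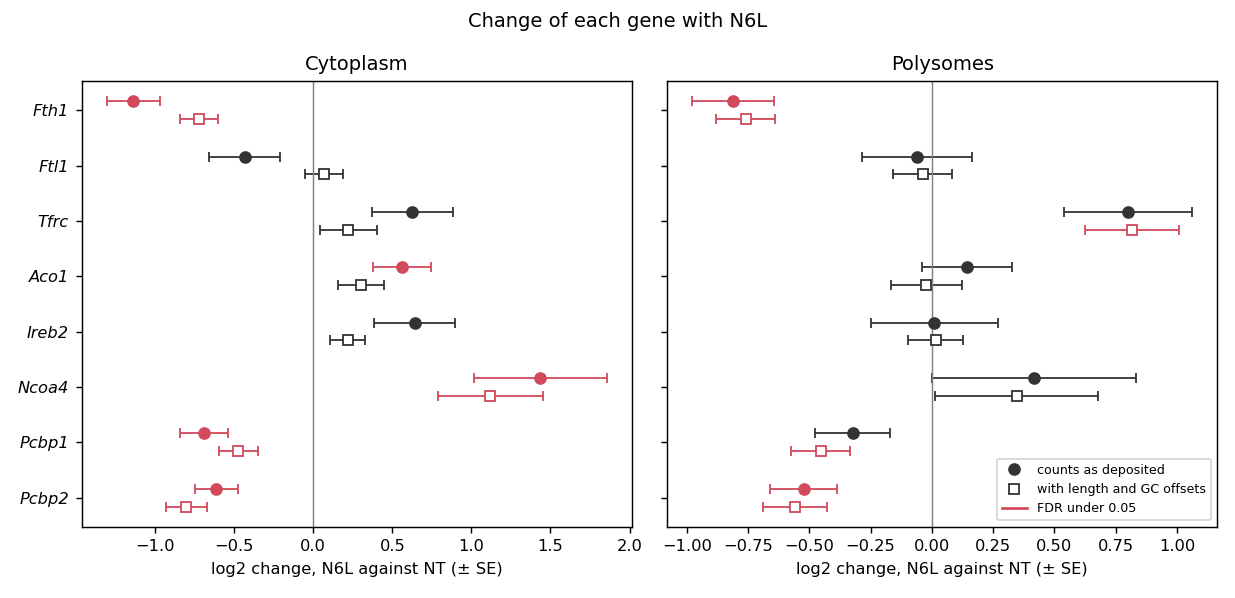
Log2 change of each gene with N6L against NT in the cytoplasm (left) and in polysomes (right), with bars of 1 SE. Filled circles are from the counts as deposited, open squares from the same fit with offsets for transcript length and GC content, and red marks an FDR under 0.05. Fth1 and Pcbp2 lie below 0 and are red in both fractions and both fits, and Tfrc in polysomes is red only with the offsets.

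The second comparison is the same one in polysomes. Fth1 fell 1.76-fold and Pcbp2 fell 1.44-fold, so that 2 of 8 genes passed beside 9.67% of all genes. Both were lower, beside 3.66% of all genes, and no member was higher, beside 6.01%. NT and N6L cultures did not overlap for 3 of the 8 genes (Fth1, Pcbp1 and Pcbp2) beside 25.6% of all genes. Fth1 had 4525, 3820 and 4433 CPM in NT polysomes and 2099, 2389 and 2787 CPM under N6L, a log2 change of −0.81 ± 0.17 (FDR 0.0102). Each N6L culture again lay below all NT cultures. Pcbp2 had 1108, 1030 and 1125 CPM in NT polysomes and 765, 753 and 753 CPM under N6L, a log2 change of −0.52 ± 0.14 (FDR 0.0292). The N6L cultures were almost equal and far below the NT cultures. Pcbp1 had 900, 883 and 952 CPM in NT polysomes and 637, 681 and 868 CPM under N6L, and its log2 difference of −0.32 ± 0.15 did not pass (FDR 0.192). Culture 3 was the highest of the N6L cultures and came close to the NT range.

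Tfrc had 11.9, 5.96 and 8.74 CPM in NT polysomes and 16.1, 18.6 and 11.4 CPM under N6L. N6L culture 3 fell just inside the NT range and the others lay above it, and the log2 difference of 0.80 ± 0.26 did not pass (FDR 0.0697). Ftl1 had 1721, 1913 and 2669 CPM in NT polysomes against 1454, 2060 and 2529 CPM, a log2 difference of −0.061 ± 0.23 (FDR 0.891). Light chain mRNA thus covered almost the same range with and without N6L. For Aco1 (93.3, 122 and 96.8 against 146, 116 and 83.0 CPM), Ireb2 (37.2, 25.1 and 26.8 against 33.5, 37.9 and 18.2 CPM) and Ncoa4 (22.1, 28.2 and 9.82 against 35.7, 30.7 and 13.5 CPM) the polysomal ranges overlapped as well, with log2 differences of 0.14, 0.0099 and 0.42 (FDR 0.66, 0.987 and 0.561). In all 3, N6L culture 3 was the lowest of its group. No member passed without NT culture 1 or without N6L culture 2 (Fth1, FDR 0.0733 and 0.0765), beside 203 of 14084 and 146 of 14019 genes. Fth1 alone passed without NT culture 4 or N6L culture 1 (Pcbp2, FDR 0.093 and 0.0503), and without N6L culture 3 Pcbp2 gave way to Tfrc (FDR 0.0566 and 0.0396).

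Ratios within a library compare 2 genes free of the scaling between libraries, and 4 pairs were tested in each fraction by exact two-sided permutation tests over cultures. With 3 cultures against 3 the smallest p is 0.1, so none of the 8 tests could reach 0.05, and the smallest adjusted value was 0.2. Ferritin heavy and light chain form 1 shell in varying proportions. The log2 ratio of Fth1 to Ftl1 in the cytoplasm was 0.91, 0.68 and 0.73 in NT cultures 1, 2 and 4 and −0.0071, 0.16 and 0.056 in N6L cultures 1, 2 and 3. The heavy chain mRNA thus had more CPM than the light chain mRNA in each NT culture and about the same number in each N6L culture, a drop of the ratio by 1.63-fold (mean log2 0.78 ± 0.12 against 0.069 ± 0.083, SD, n = 3, exact permutation p = 0.1, adjusted p = 0.2). In polysomes the ratio was 1.39, 1.00 and 0.73 against 0.53, 0.21 and 0.14, 1.68-fold lower under N6L (exact p = 0.1, adjusted p = 0.2). NT and N6L cultures did not overlap in either fraction.

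Tfrc and Fth1 stand for uptake against storage. Their log2 ratio in the cytoplasm was −7.60, −7.88 and −8.22 in NT cultures and −6.40, −5.71 and −6.42 in N6L cultures, 3.31-fold higher under N6L (exact permutation p = 0.1, adjusted p = 0.2, n = 3). In polysomes it was −8.56, −9.31 and −8.98 against −7.02, −7.00 and −7.92, 3.10-fold higher under N6L (exact p = 0.1, adjusted p = 0.2). All N6L cultures lay above all NT cultures in both fractions. The pair sets a transcript of 4890 bases (Tfrc) against 1 of 929 bases (Fth1). Over all genes the median log2 change in the cytoplasm was 0.41 for transcripts of 4000 bases or more and −0.65 for those under 1000 bases. The part of length in the change of this ratio was not tested. The ratio of Ireb2 to Aco1 changed by 0.068 in the cytoplasm and −0.16 in polysomes on the log2 scale, and that of Pcbp1 to Pcbp2 by −0.077 and 0.19, with overlapping cultures in each case (exact p between 0.2 and 0.8).

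**Figure D3:**
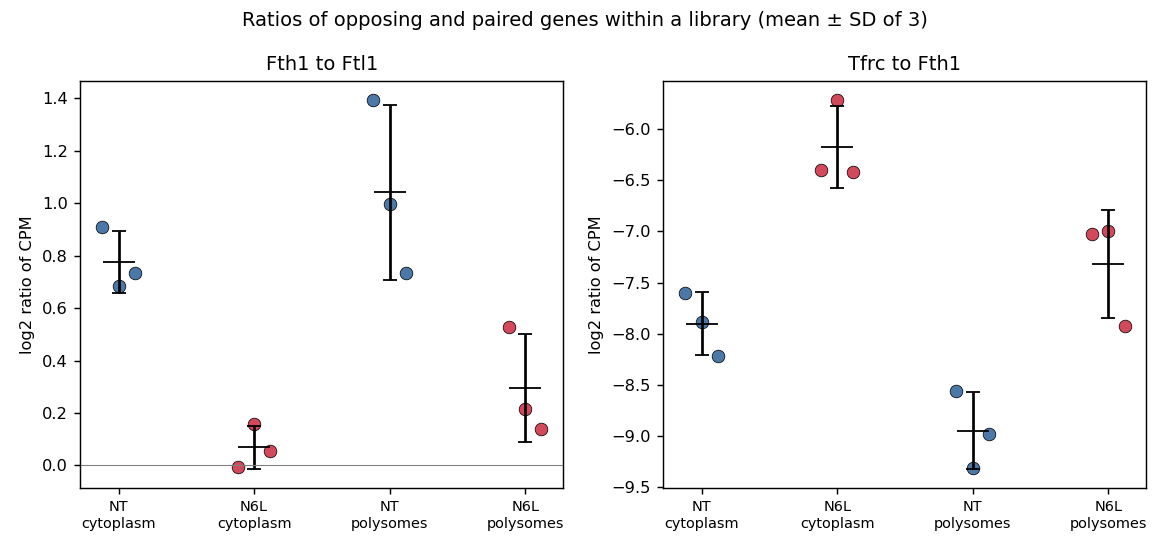
Log2 ratio of the CPM of Fth1 to Ftl1 (left) and of Tfrc to Fth1 (right) in each library, with the mean and SD of 3 cultures. In both fractions the N6L points lie below the NT points on the left and above them on the right, without overlap.

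The standing of an mRNA on polysomes, relative to other mRNAs, was read from the log2 ratio of polysomal to cytoplasmic CPM. Each library was scaled on its own, and the median ratio of all genes lay between −0.015 and 0.058 in each culture. A loss of polysomes common to all mRNAs therefore shows neither in this ratio nor in differences of it. The NT cultures come first. None of the 8 genes passed with edgeR, beside 0.209% of all genes, while 4 of the 8 had an unadjusted p under 0.05 beside 1855 of all 13889, and DESeq2 called 1 (Tfrc). The polysomal values of Fth1, Ftl1 and Tfrc lay below all cytoplasmic ones, and 22.4% of all genes showed no overlap in either direction. Tfrc was lowest, with ratios of −1.10, −1.69 and −1.37 in NT cultures 1, 2 and 4 and a fitted ratio of −1.36 ± 0.26 (FDR 0.0547), which is 2.56-fold less in polysomes. Both fractions of a culture come from 1 lysate, and with the culture as a block Tfrc passed at −1.39 ± 0.15 (FDR 0.00792), the only member to do so. It passed as well without N6L culture 3 (FDR 0.0167), although that culture is in neither group of this comparison. Ftl1 was close to −0.61 in all NT cultures (−0.64, −0.58 and −0.61, FDR 0.274) and Fth1 lay between −0.15 and −0.61 (FDR 0.368). Ireb2 had −0.44, −0.94 and −0.45 (FDR 0.336). Aco1, Ncoa4, Pcbp1 and Pcbp2 were close to 0, with means of 0.024, −0.058, 0.035 and −0.012.

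In N6L cultures Tfrc and Ireb2 were lower in polysomes than in cytoplasm, by 2.27-fold and 2.36-fold. These were 2 of 8 genes past the FDR limit beside 39% of all genes, and both were lower, beside 20.6% of all genes. The fractions did not overlap for 4 members (Tfrc, Ireb2 and Ncoa4 lower, Pcbp1 higher) beside 56.9% of all genes. Tfrc had log2 ratios of −0.92, −1.28 and −1.34 in N6L cultures 1, 2 and 3 (fitted −1.18 ± 0.26, FDR 0.00597), and the ranges of NT and N6L cultures overlapped. Ireb2 had −0.83, −1.24 and −1.77 (fitted −1.24 ± 0.26, FDR 0.00545). Ncoa4 had −0.57, −0.89 and −2.16 (FDR 0.0505) and Pcbp1 0.22, 0.36 and 0.57 (FDR 0.0532), both just outside the limit, and culture 3 was the extreme one for each. With the culture as a block 5 members passed, beside 7460 of all 13889 genes. Ncoa4 (−1.19 ± 0.26, FDR 0.00492), Aco1 (−0.42 ± 0.15, FDR 0.0404) and Pcbp1 (0.38 ± 0.11, FDR 0.0172) were added. Without NT culture 4, which enters the estimate of the spread, Ncoa4 (FDR 0.0143) and Pcbp1 (FDR 0.0497) passed as well. That fit called 5861 of 14032 genes. The ratios of Fth1 (−0.30, 0.004 and 0.17) and Ftl1 (−0.83, −0.052 and 0.083) spread around 0.

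The translational index is the polysome-to-cytoplasm log2 ratio under N6L minus that of NT cultures, tested as 1 contrast. No member passed, as no gene of the 13889 did (0%) with either edgeR or DESeq2, and 0 of the 8 members and 1074 of all genes had an unadjusted p under 0.05. The estimates were −1.02 ± 0.59 for Ncoa4, −0.63 ± 0.37 for Ireb2, −0.42 ± 0.26 for Aco1, 0.37 ± 0.32 for Ftl1, 0.37 ± 0.21 for Pcbp1, 0.33 ± 0.23 for Fth1, 0.17 ± 0.36 for Tfrc and 0.090 ± 0.19 for Pcbp2 (SE; FDR 0.555 to 0.843). NT and N6L cultures did not overlap for Aco1 and Ncoa4, which were lower, and Pcbp1, which was higher (3 of 8 beside 29.7% of all genes). For these 3 the exact permutation test over cultures gave p = 0.1, the smallest possible, and an adjusted p of 0.267 over the 8 genes. With errors of this size an index of Ncoa4 as far from 0 as −1.02 was not detectable as a difference.

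**Figure D4:**
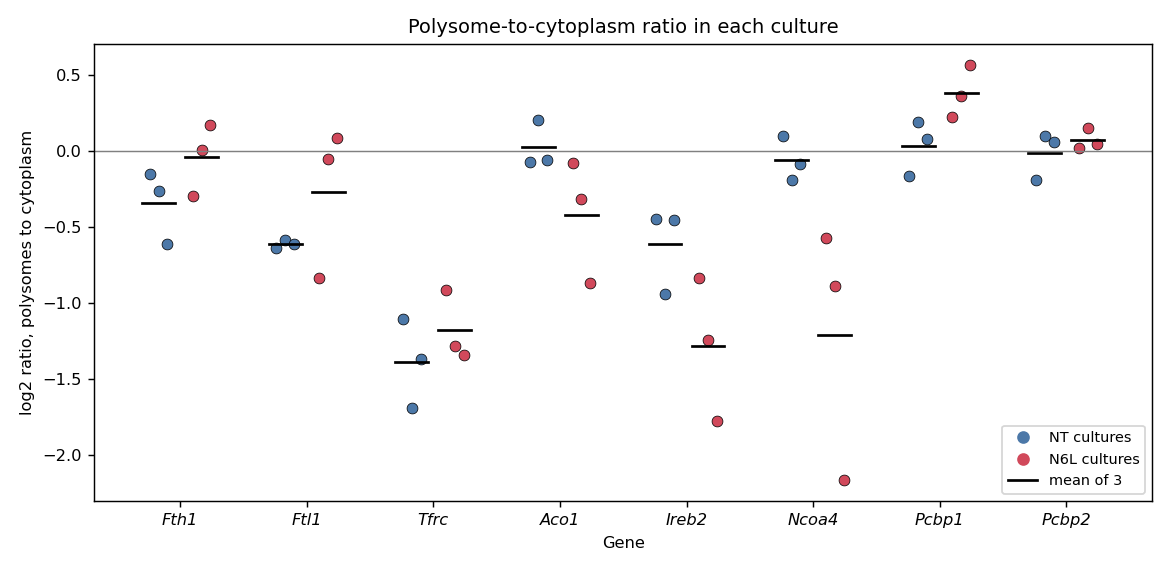
Log2 ratio of polysomal to cytoplasmic CPM in each NT (blue) and N6L (red) culture, with the mean of 3 as a bar. Tfrc lies below 0 in all 6 cultures, Ireb2 also, and N6L culture 3 gives the lowest value of Aco1, Ireb2 and Ncoa4 at −0.87, −1.77 and −2.16.

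Transcript length moved with these changes over all genes. In the cytoplasm the median log2 change with N6L was −0.65 for the 1567 tested genes with transcripts under 1000 bases, −0.31 for 1000 to 1999 bases, 0.068 for 2000 to 3999 bases and 0.41 for the 4000 genes of 4000 bases or more (Spearman correlation across 13867 genes 0.509, a description, since genes share libraries). The 4 members with the shortest transcripts (Fth1, Ftl1, Pcbp1, Pcbp2) were lower and the 4 with the longest (Aco1, Ncoa4, Tfrc, Ireb2) were higher. Seen within its length class, Fth1 was lower than 84.5% of genes, Pcbp1 lower than 80.5% and Pcbp2 lower than 92.1%. Ncoa4 was higher than 96.5% and Aco1 higher than 83.2% of their classes, whereas Ftl1 was higher than 63.2%, Tfrc higher than 69.2% and Ireb2 higher than 70.3%, nearer the middle. The polysome-to-cytoplasm ratio ran the other way (Spearman correlation with length −0.480 in NT and −0.634 in N6L cultures), and the median ratio of genes of 4000 bases or more was −0.38, −0.54 and −0.93 in N6L cultures 1, 2 and 3 against −0.24, −0.20 and −0.17 in NT cultures 1, 2 and 4. N6L culture 3, which had the lowest ratios of Ireb2 and Ncoa4, also had the lowest of these medians.

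Offsets that remove the smooth trend with length and GC content from each library changed which members passed. In the cytoplasm Fth1 (−0.72 ± 0.12, FDR 0.00133), Pcbp1 (−0.47, FDR 0.011), Pcbp2 (−0.80, FDR 0.00113) and Ncoa4 (1.12, FDR 0.0224) kept their direction and passed, whereas Aco1 fell to 0.30 (FDR 0.129), and Tfrc and Ireb2 were both at 0.22 (FDR 0.376 and 0.144). Ftl1 moved from −0.43 to 0.070. In polysomes 4 members then passed, Fth1 (−0.76), Pcbp1 (−0.45) and Pcbp2 (−0.56) lower and Tfrc (0.82 ± 0.19, FDR 0.00982) higher. Polysomal calls over all 13889 genes rose as well, from 1343 to 3021. The polysome-to-cytoplasm ratios changed most. Both ferritin mRNAs were lower in polysomes than in cytoplasm, Fth1 at −0.64 in NT (FDR 0.0367) and −0.67 in N6L cultures (FDR 0.00597) and Ftl1 at −0.91 (FDR 0.00851) and −1.02 (FDR 0.00374), while Tfrc (−0.24, FDR 0.398) and Ireb2 (−0.18, FDR 0.288) no longer passed in N6L cultures. Already without offsets, the NT ratio of Fth1 was lower than 90.3% and that of Ftl1 lower than 94.1% of genes with transcripts under 1000 bases, and that of Tfrc lower than 99.1% of genes of 4000 bases or more. No index passed with the offsets either. The part of length and GC content in the changes themselves was not tested.

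**Figure D5:**
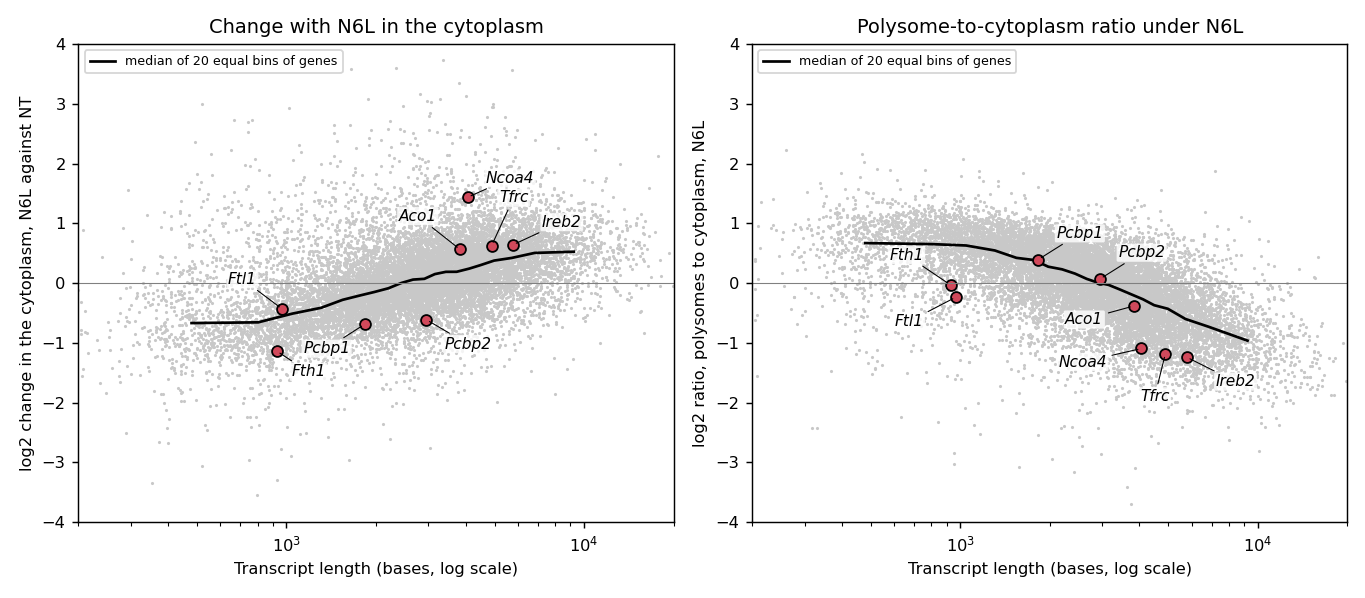
Log2 change with N6L in the cytoplasm (left) and polysome-to-cytoplasm log2 ratio of N6L cultures (right) against transcript length on a log axis, with grey points for tested genes, a black line for the median in 20 bins of equal gene number and red points for the 8 genes. The line rises with length on the left and falls on the right. Ncoa4 lies well above and Fth1 and Pcbp2 below it on the left, and Fth1 and Ftl1 lie below it on the right.

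Among 9 other genes whose mRNAs are known to carry IREs, 8 were tested. In the cytoplasm all 8 had a log2 difference above 0, beside 52.8% of all genes and 80.2% of those with transcripts of 4000 bases or more. Their median was 0.57 beside 0.042 for all genes, and 3 passed and rose (beside 14.5% of all genes). In polysomes 6 of 8 were above 0 (beside 50.1%), and 2 passed and rose (beside 6.01%). Epas1, which encodes the hypoxia factor HIF-2α, rose from 5.82 ± 0.478 to 22.2 ± 2.31 CPM (SD, n = 3) (log2 change 1.94 ± 0.23, FDR 0.000507), Cdc14a, a phosphatase, rose from 15.2 to 30.0 CPM (0.98 ± 0.26, FDR 0.0143) and Slc40a1 rose from 10.7 to 19.9 CPM (0.90, FDR 0.0107). Those that rose in polysomes were Epas1 (1.37 ± 0.23, FDR 0.00452) and Slc40a1 (0.87 ± 0.23, FDR 0.0288), while Cdc42bpa and Hao1 were each at −0.33 there (FDR 0.377 and 0.619). Slc40a1 has a 5′UTR element like that of ferritin, and its mRNA rose in both fractions whereas Fth1 fell in both. The rise of Slc40a1 did not pass in either fraction with N6L culture 2 left out. In polysomes it passed under 11 of the 16 alternatives tried. Of the others, the log2 difference in the cytoplasm was 0.32 for Slc11a2, the importer DMT1, 0.37 for Cdc42bpa, 0.069 for Hao1 and 0.77 for Pfn2 (FDR 0.068 to 0.905). Under N6L, 4 of the 8 were lower in polysomes than in cytoplasm (Cdc42bpa, Cdc14a, Epas1 and Slc40a1, log2 ratios of −1.12, −0.87, −0.83 and −0.61), beside 20.6% of all genes, and none was higher. The 4 became 1 with N6L culture 3 left out and 2 with N6L culture 2 left out. Over all genes the 5415 calls in either direction became 1653 and 1153. Alas2, the erythroid enzyme of heme synthesis, had at most 1 count in a library. With N6L culture 2 left out 1 of the 8 passed in the cytoplasm. With length and GC offsets the number was 3 in the cytoplasm, where the median of the list was 0.41, and 3 in polysomes. With these offsets 0 passed for the polysome-to-cytoplasm ratio of N6L cultures.

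Genes of iron uptake, storage and export, a list that includes Slc40a1 and Slc11a2, passed at about the share of all genes in the cytoplasm. Of 16 tested, 3 rose (beside 14.5% of all genes) and 1 fell (beside 13.8%), with a median log2 change of 0.00082, and 3 rose in polysomes (beside 6.01%). None of the 3 polysomal calls held with NT culture 1 or with N6L culture 2 left out, where 203 and 146 of all genes passed in place of 1343. With NT culture 2 or with N6L culture 1 left out, 1 gene passed. Cp, ceruloplasmin, which oxidises iron on its way out of the cell, rose from 10.99 to 30.2 CPM in the cytoplasm (1.47 ± 0.27, FDR 0.00293) and rose in polysomes (1.03 ± 0.28, FDR 0.0352). Tfr2, the second transferrin receptor, rose in both fractions (1.20 and 1.41, FDR 0.0169 and 0.0135), though at only 0.367 to 1.36 CPM, and the metalloreductase gene Steap1 fell in the cytoplasm (−0.75, FDR 0.0194). With N6L culture 2 left out, 1 of the 16 rose and 0 fell in the cytoplasm, and with NT culture 1 or 2 left out, 2 rose and 0 fell. Length and GC offsets gave 4 that rose and 3 that fell.

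Regulators of the iron regulatory proteins and of ferritin turnover also passed at a share near that of all genes. Of 13 tested, 1 rose and 2 fell in the cytoplasm, beside 28.3% of all genes in either direction. None passed in polysomes, where 3 of 13 had a log2 difference above 0, beside 50.1% of all genes. Rb1cc1, a scaffold of autophagy initiation, rose in the cytoplasm (0.95 ± 0.27, FDR 0.02), Bola2, a partner of the iron chaperone Glrx3, fell (−1.36 ± 0.30, FDR 0.0064), and Rbx1, a ubiquitin ligase subunit, fell (−0.59 ± 0.19, FDR 0.032). Fbxl5, the ubiquitin ligase adaptor that marks Ireb2 for degradation when iron is plentiful, is named here for that role and had a log2 difference of 0.53 (FDR 0.0564). With length and GC offsets 0 rose and 3 fell, Rb1cc1 no longer passing. With NT culture 1, NT culture 4 or N6L culture 2 left out, 0 rose and 1 fell, and with N6L culture 1 left out 1 rose and 1 fell.

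Iron-sulfur clusters are the cofactors that Aco1 and many enzymes need, and mRNAs for their assembly were lower in the cytoplasm. Of the mitochondrial assembly genes, 11 of 19 tested genes fell, beside 13.8% of all genes, and none rose (median −0.71 beside 0.042 for all genes). In front were Bola1 (−1.39 ± 0.34, FDR 0.0097) and Bola3 (−1.34 ± 0.25, FDR 0.00276), which serve late steps of cluster delivery. In polysomes 1 of the 19 fell (Bola3, −0.82 ± 0.24, FDR 0.0482), beside 3.66% of all genes. Of the cytosolic assembly genes 3 of 9 fell, beside 13.8% of all genes, and none rose. They were led by Ciao2b (−0.89 ± 0.23, FDR 0.0125) and Ciao2a (−0.88 ± 0.18, FDR 0.00421). Ciao2a, whose product is known to act on Aco1, was the 1 of 9 that fell in polysomes (−0.76, FDR 0.0181), beside 3.66% of all genes. Heme genes gave 5 falls and no rise among 18, beside 13.8% lower among all genes. Alad (−1.03 ± 0.24, FDR 0.00803), an early enzyme of heme synthesis, and Blvra (−0.70 ± 0.14, FDR 0.0047), a biliverdin reductase, were in front. Blvra was the 1 of 18 that fell in polysomes (−0.50, FDR 0.0427), beside 3.66% of all genes. In N6L cultures 13 of the 19 mitochondrial assembly genes were higher in polysomes than in cytoplasm, beside 18.4% of all genes, and 1 was lower, beside 20.6%. The 13 became 2 with N6L culture 2 or with N6L culture 3 left out, and 7 with length and GC offsets. Over all genes, the 5415 calls in either direction became 1153, 1653 and 2288 in the same fits. The median log2 ratio of the list was 0.60 with all cultures and 0.60, 0.52 and 0.44 in these fits. With length and GC offsets the falls in the cytoplasm were 11 of 19, 5 of 9 and 5 of 18, and the median of the mitochondrial list was −0.42 in place of −0.71. With NT culture 4 or N6L culture 1 left out, the 11 falls of mitochondrial assembly genes became 7. With N6L culture 2 left out they became 5, the 3 cytosolic ones became 1 and the 5 of heme genes became 2. Over all genes the 3935 cytoplasmic calls became 1295 without that culture. The heme genes gave 3 falls when NT culture 1, NT culture 2 or N6L culture 1 was dropped.

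The calls of single genes named from these lists differed in how far they rested on 1 culture. Epas1, Cp, Bola2, Bola3, Ciao2a, Alad and Blvra passed in the cytoplasm under each of the 16 alternatives tried. Cdc14a, Slc40a1, Tfr2, Steap1, Rb1cc1, Rbx1, Bola1 and Ciao2b no longer passed there when N6L culture 2 was dropped. In polysomes none of Epas1, Slc40a1, Tfr2, Cp, Bola3, Ciao2a and Blvra passed with that culture dropped, and Epas1 alone of these passed with NT culture 1 dropped. Most other genes lost their calls too. Without N6L culture 2, calls over all genes went from 3935 to 1295 in the cytoplasm and from 1343 to 146 in polysomes. Without NT culture 1, those in polysomes went to 203. The polysomal fall of Blvra passed under 6 of the 16 alternatives.

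The genes whose log2 CPM followed Fth1 most closely over the 12 libraries, among 8959 with a mean of at least 10 CPM, were Pmepa1 (Pearson r = 0.967), Atn1 (0.964) and Ybx3 (0.960). For Ftl1 they were Efemp2 (0.948), Col18a1 (0.846) and Gpc1 (0.836), and for Tfrc Fam20b (0.965), Adam10 (0.962) and Elk3 (0.960). Among the members, Tfrc ran closest with Ireb2 (0.876) and Fth1 with Pcbp2 (0.896), whereas Fth1 and Ftl1 reached 0.606. These are descriptions over 12 libraries that share treatments, fractions and cultures.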

How the data were processed

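RNA-seq of 48 samples (12 libraries of 4 technical replicates) gave the data. The authors deposited raw counts per Ensembl gene for each technical replicate, made by HTSeq 0.5.3 from STAR alignments to mm10 after bcl2fastq 2.18.0.12, per the submitters' processing notes. No source used here names the annotation release or the counting options. The RNA was selected for polyadenylation and the library kit keeps strand, but whether counting used strand is not stated.

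Technical replicates were summed per library, to totals of 19519911 to 44972333 counts. Conflicting labels (title of culture 2, description of culture 1) stand on 3 of the 4 technical replicates in the cytoplasm of N6L culture 2. They were kept with culture 2, from whose remaining technical replicate they differed by a chi-square of 1.01 to 1.04 per degree of freedom, against 11.2 to 11.4 from culture 1. No entry lacked a gene name. Symbols, positions, lengths and GC content came from GENCODE vM21 (GRCm38, the same assembly as mm10), which matched 50376 of the 50600 gene identifiers, and 1 transcript per gene was used, preferring those in the basic set with a RefSeq match.

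Genes were filtered with filterByExpr and scaled by TMM, and 4 group means were fitted over the 12 libraries with edgeR 4.0.16 (R 4.3.3, quasi-likelihood test, Benjamini-Hochberg adjustment over 13889 genes, FDR limit 0.05), without a block. The script was tested on simulated counts. CPM per culture used a prior count of 2 where logs were taken. Ratios per culture were compared by exact two-sided permutation tests. Alternatives were RLE size factors or library totals alone, no filter beyond 1 count or at least 10 counts in every library, DESeq2 1.42.0, technical replicate a alone, conflicting replicates left out, each culture left out, a replicate block, and offsets per library from natural splines (5 degrees of freedom) of log length and GC content, with and without the block. Length and GC content were known for 13867 tested genes. Both fractions of a culture come from 1 lysate, which pairs them: their deviations from the group means correlated at 0.364, 0.452 and 0.645 in NT cultures 1, 2 and 4 and at 0.0368, 0.199 and 0.230 in N6L cultures 1, 2 and 3.

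The 8 members and the pathway lists were chosen with earlier results of these data known. Named beside the members were the tested genes of the IRE list except 1 that is not reported here, of each other list up to 2 genes with the largest and 2 with the smallest change among those past the FDR limit in each fraction, Fbxl5 for its role, and the 3 genes closest to Fth1, Ftl1 and Tfrc by Pearson correlation at a mean of at least 10 CPM. Protein sequences were not used here.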

Additional observations from a re-analysis of the deposited data

How the results depend on the processing

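Of 640 refitted values of single members and ratios, 535 kept both direction and side of the threshold, 44 newly passed, 20 no longer passed and 41 changed sign, none of the last at an FDR under 0.05. The number of members passing in the cytoplasm was 3 to 7 with 1 culture left out (5 with all) and in polysomes 0 to 2, and length and GC offsets gave 4 in polysomes, with or without the block. For the polysome-to-cytoplasm ratio of NT cultures, where none passed, it was 0 to 1 with 1 culture left out, 1 with DESeq2, 1 without the conflicting replicates, 2 with no filter, 2 with offsets and 3 with offsets and block. For that of N6L cultures, where 2 passed, it was 2 to 4 with 1 culture left out, 4 with at least 10 counts in every library and 4 with DESeq2. The index gave 0 throughout.

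Small log2 values changed sign. With length and GC offsets, and then with offsets and the replicate block, Ftl1 was at 0.070 and 0.15 in the cytoplasm, the NT ratios of Ireb2 at 0.026 and 0.023, of Ncoa4 at 0.21 and 0.21, of Pcbp1 at −0.14 and −0.13 and of Pcbp2 at 0.032 and 0.039, the N6L ratio of Pcbp1 at −0.12 and −0.12, and the indices of Fth1 at −0.036 and −0.031 and of Ftl1 at −0.11 and −0.11. Aco1 in polysomes was at −0.023 with offsets, and Ftl1 in polysomes at 0.039 with offsets and block. Library totals alone gave 0.022 for Ftl1 in polysomes, −0.038 and −0.048 for the NT ratios of Aco1 and Pcbp1 and −0.063 for the N6L ratio of Pcbp2. That scaling moved the median of all genes to 0.19 in the cytoplasm and to −0.11 for the N6L ratio. Ireb2 in polysomes was at −0.0094 with RLE factors and −0.011 with DESeq2, and the NT ratio of Ncoa4 at 0.016 with technical replicate a alone.

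With 1 culture left out, polysomal changes ran from −0.26 to 0.16 for Ftl1, −0.066 to 0.33 for Aco1 and −0.21 to 0.27 for Ireb2. NT ratios ran from −0.066 to 0.082 for Aco1, −0.17 to 0.025 for Ncoa4, −0.045 to 0.13 for Pcbp1 and −0.086 to 0.079 for Pcbp2, and N6L ratios from −0.14 to 0.089 for Fth1 and −0.43 to 0.020 for Ftl1. The index of Pcbp2 ran from −0.0078 to 0.17 and its ratio per culture, N6L minus NT, from −0.0075 to 0.14. The change of the Ireb2 to Aco1 ratio ran from −0.15 to 0.19 in the cytoplasm and −0.39 to 0.090 in polysomes.

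With the culture as a replicate block, 1 member passed for the NT ratio and 5 for the N6L ratio, beside 203 and 7460 of all 13889 genes. Across treatments, cultures share only a number: same-numbered deviations correlated at 0.228 (cytoplasm) and 0.296 (polysomes) for number 1 and at 0.0455 and 0.00756 for number 2. With that number as a block, 7 members passed in the cytoplasm, Tfrc (FDR 0.0322) and Ireb2 (FDR 0.0273) being added. In polysomes 3 passed, with Tfrc (FDR 0.0415), while Ftl1 was at 0.035. Of all 13889 genes, 4737 passed in the cytoplasm and 1355 in polysomes with this block, against 3935 and 1343 without it.

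Counts over all genes moved as well. For the NT ratio 29 genes passed, against 273 with DESeq2, 647 with no filter, 203 with the block, 71 with offsets, 545 with offsets and block and 0 to 335 with 1 culture left out. In polysomes 1343 passed, against 2034 with DESeq2, 895 with technical replicate a alone, 3021 with offsets, 3041 with offsets and block and 146 to 1579 with 1 culture left out. In the cytoplasm it was 3935 against 1295 to 4042 with 1 culture left out, and for the N6L ratio 5415 against 2288 with offsets and 1153 to 5861. No filter gave 114 genes for the index in place of 0. At 3 cultures a group and 182 counts for the rarest member, the spread between cultures limits what could be called.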
